A study of Populus alba x Populus glandulosa with 12 samples.

Results

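The genes described here are the poplar homologs of 10 Arabidopsis loci that relay immune receptor signals to the defence hormone salicylate: EDS1 (AT3G48090), PAD4 (AT3G52430), SAG101 (AT5G14930), NPR1 (AT1G64280), NPR3 (AT5G45110), NPR4 (AT4G19660), ICS1 (AT1G74710), EDS5 (AT4G39030), FMO1 (AT1G19250) and SARD1 (AT1G73805). They were chosen by the Arabidopsis locus with which the deposited table pairs each poplar gene, without use of any measured value. Of 34749 genes in the table, 26 are paired with 8 of these loci. EDS1, NPR1 and ICS1 have 1 poplar gene each, PAD4 and SARD1 have 2, FMO1 and NPR3 have 6, and SAG101 has 7. No row is paired with NPR4 or EDS5, and neither is described further. Gene names are those of the paired Arabidopsis locus, and the poplar genes are called copies of it.

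Leaf RNA was sequenced in the hybrid poplar Populus alba × P. glandulosa. Nontransgenic control plants (CK, 4 libraries) were compared with 2 lines that overexpress the zinc finger protein PagSUPa (OE), line 2 and line 7 (4 libraries each). Neither the promoter of the transgene nor plant age is stated in the sources used here. The labels number the replicates but do not say whether they came from separate plants, and the tests therefore weigh differences against a spread that may be technical.

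EDS1, PAD4 and SAG101 are related lipase-like proteins. In Arabidopsis, EDS1 pairs with either PAD4 or SAG101, and these pairs pass on signals from immune receptors that carry a TIR domain, through helper receptors of the ADR1 and NRG1 types. Salicylate is made in Arabidopsis leaves largely by way of isochorismate, in a pathway that begins with ICS1, whose gene is activated by the transcription factor SARD1. Salicylate is sensed by the NPR proteins, and FMO1 makes N-hydroxypipecolate, a mobile signal that acts together with salicylate in resistance that spreads through the plant.

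Values are TPM, each transcript's length-scaled share of a fixed library total. Library totals were nearly equal (999989.2 to 999995.5), and sequencing depth is unknown. The homolog of ZFP11, a relative of SUPERMAN (Potri.002G041700), served as a check of the labels, chosen with its values known, since the table names no gene PagSUPa. It lay at 0 to 0.112 TPM in controls and at 1210 to 1714 TPM in OE libraries. Control replicates 1 and 2 stood apart from the other libraries of their group, with library weights of 0.318 and 0.514 against 1.89 and 3.02. Limma gives lower weights to libraries that deviate more from their group. In line 2 the weights of replicates 1, 3 and 4 were 0.615, 0.601 and 0.627, against 3.25 for replicate 2. In line 7 they were 0.842, 0.603, 1.1 and 2.54 for replicates 1 to 4. Of the listed markers of other leaf cell types, 10 of 14 xylem, 2 of 5 phloem and 2 of 4 guard cell genes were lower in OE leaves and none of these was higher. Among all tested genes, 34.0% were lower and 22.1% higher. The summed phloem markers lay at 39.3 to 55.1 TPM in controls and 23.1 to 33.9 TPM in OE libraries, and the xylem markers at 142 to 268 and 10.4 to 91.3 TPM. The guard cell sums were 96.1 to 131 and 64.1 to 92.6 TPM. Of 6 epidermis markers none passed, with sums of 509 to 608 and 202 to 625 TPM, and 2 of 5 mesophyll markers were lower, with sums of 36170 to 43504 and 19506 to 43399 TPM. The part of cell type makeup in the results below was not tested, and in whole leaves fewer cells of a type and less RNA per cell cannot be told apart.

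A copy was tested if at least 4 of 12 libraries reached 1 TPM, which 22 of the 26 copies did. Fold changes were taken from log2(TPM + 1), so they are too small for genes near 0 TPM, and adjusted p-values are from limma over all 24926 tested genes. In both OE lines together against CK, 13 copies were higher and 4 lower at an adjusted p under 0.05. Across all tested genes, 56.1% passed, 22.1% higher and 34.0% lower. Of the tested copies, 3 were under 1 TPM in every control and 6 had fewer than 4 controls at 1 TPM, so these counts describe the copies that passed the filter and are not support for a shared direction. The median log2 fold change was 0.65 over the 22 copies and -0.133 over all tested genes. Median ratio scaling moved that of all genes to -0.00655 and the genes called higher and lower from 5511 and 8469 to 7231 and 7093, while the copies stayed at 13 higher and 4 lower. Without control replicates 1 and 2, 10 copies were higher and 1 lower, where 3887 of all tested genes were higher and 3543 lower.

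EDS1 was higher in every OE library. The EDS1 copy (Potri.015G069600) was at 0.426, 1.80, 0.802 and 1.395 TPM in control replicates 1 to 4. It was at 11.3, 11.5, 11.01 and 13.0 TPM in line 2 and at 13.4, 12.6, 10.2 and 9.88 TPM in line 7. The lowest OE library, at 9.88 TPM, lay far above the highest control. The mean rose from 1.11 ± 0.611 TPM (SD, n = 4) to 11.7 ± 0.886 TPM for line 2 and 11.5 ± 1.75 TPM for line 7 (SD, n = 4 each). Both lines together gave a log2 fold change of 2.62 with an SE of 0.17 (adjusted p = 1.52e-06 in limma), the 395th highest of 24926 tested genes. The EDS1 level also varied little among the 8 OE libraries, with a coefficient of variation of 11.1%, where the median of all tested genes was 20.5%.

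**Figure D1:**
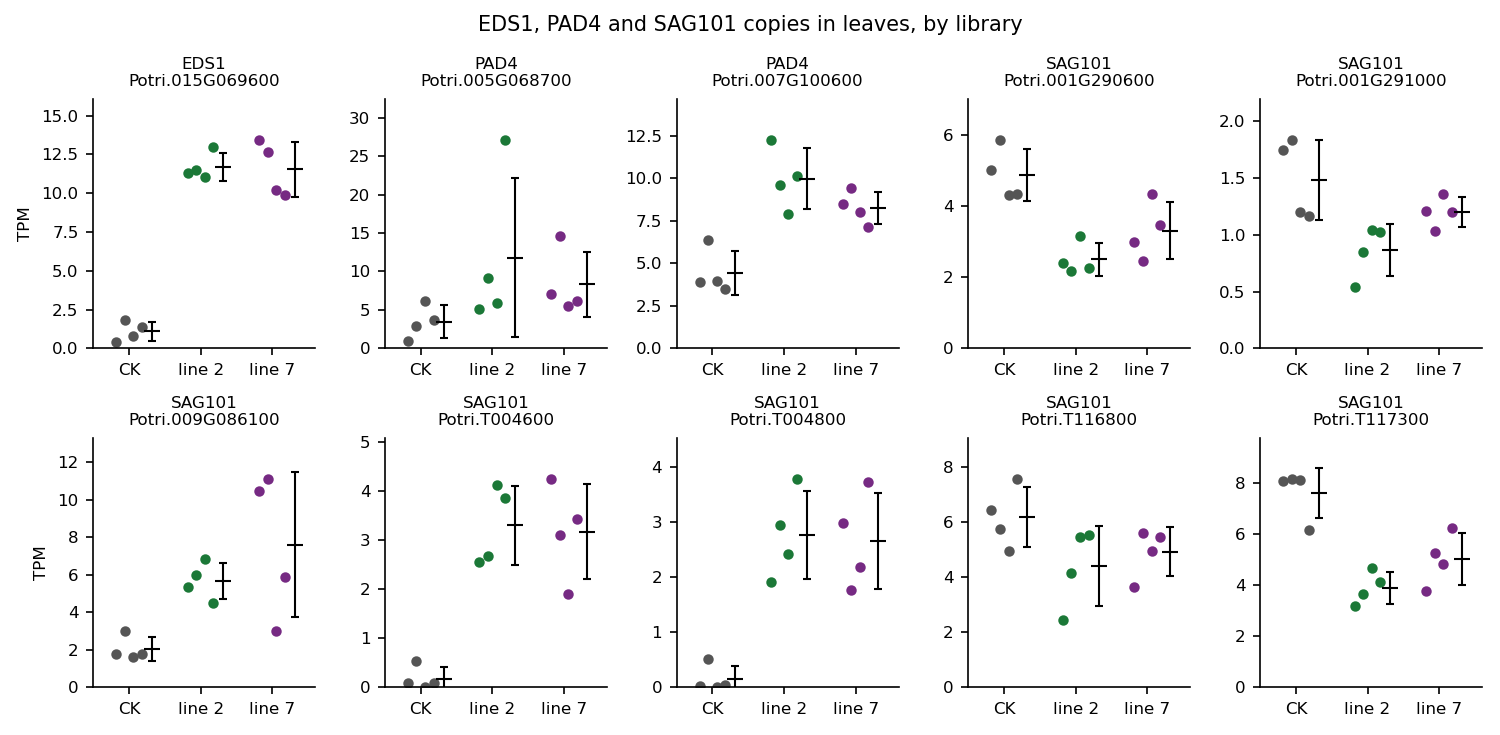
TPM of the EDS1, PAD4 and SAG101 copies (vertical axes, linear and starting at 0, 1 panel per copy) in the libraries of CK, OE line 2 and OE line 7. Points are libraries, ordered by replicate number, and bars are mean ± SD (n = 4). EDS1 lies at 9.88 to 13.4 TPM in OE libraries and at 0.426 to 1.80 TPM in controls, while the SAG101 copies move in both directions.

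The 2 copies of PAD4, the partner of EDS1 in basal resistance in Arabidopsis, were both higher in OE leaves. Potri.007G100600 was at 3.92, 6.37, 3.96 and 3.50 TPM in CK replicates 1 to 4, at 12.2, 9.61, 7.90 and 10.1 TPM in those of line 2 and at 8.49, 9.41, 8.04 and 7.12 TPM in those of line 7. Its OE libraries all lay above the controls, and its log2 fold change of 0.91 had an SE of 0.15 (adjusted p = 0.000543 in limma). Potri.005G068700 spread far more, with 0.981, 2.96, 6.18 and 3.70 TPM in CK replicates 1 to 4, 5.06, 9.19, 5.89 and 27.0 TPM in those of line 2 and 7.09, 14.6, 5.52 and 6.13 TPM in those of line 7. The highest value was in replicate 4 of line 2, and 4 of 8 OE libraries lay above the highest control.

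This second PAD4 copy had a log2 fold change of 1.25 (SE 0.44, limma adjusted p = 0.0305), with values of 1.37 for line 2 alone (adjusted p = 0.0402) and 1.12 for line 7 alone (adjusted p = 0.0908). Its call in both lines was lost without control replicate 1 (0.90, adjusted p = 0.117), without control replicate 2 (1.24, adjusted p = 0.0679), and without both (0.72, adjusted p = 0.327). The ratio between the PAD4 copies was compared between OE and control libraries. It differed by 0.34 on the log2 scale (exact permutation p = 0.505, two-sided, 8 against 4 libraries), so a difference in response between them was not detected. The sum of both copies was 7.89 ± 2.35 TPM in CK, 21.8 ± 10.5 TPM for line 2 and 16.6 ± 5.05 TPM for line 7 (SD, n = 4 each).

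The 7 copies of SAG101, the other partner of EDS1, moved in opposite directions. Of these, 3 were higher, 2 were lower and 2 did not pass. Potri.T004600 was at 0.098, 0.537, 0 and 0.092 TPM in CK replicates 1 to 4, at 2.55, 2.67, 4.14 and 3.87 TPM in those of line 2 and at 4.24, 3.10, 1.91 and 3.44 TPM in those of line 7. Potri.T004800 was at 0.025, 0.518, 0 and 0.046 TPM in CK replicates 1 to 4, at 1.92, 2.94, 2.42 and 3.77 TPM in those of line 2 and at 2.99, 1.77, 2.18 and 3.73 TPM in those of line 7. For both copies all OE libraries lay above all controls, and their log2 fold changes were 1.84 (SE 0.18) and 1.69 (SE 0.18), with limma adjusted p = 2.13e-05 and 4.27e-05. These low values make the size depend on the pseudocount, and the 2 changes were 3.87 and 3.89 at a pseudocount of 0.1 and 0.66 and 0.58 at a pseudocount of 5.

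Potri.009G086100 was the third SAG101 copy that rose, from 1.77, 3.01, 1.62 and 1.78 TPM in controls. It was at 5.37, 5.98, 6.83 and 4.53 TPM in line 2 and at 10.5, 11.1, 2.99 and 5.88 TPM in line 7. Replicate 3 of line 7, at 2.99 TPM, lay below control replicate 2, at 3.01 TPM, and the other 7 OE libraries lay above all controls. The log2 fold change of 1.27 had an SE of 0.27 (adjusted p = 0.00242 in limma).

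The SAG101 copies with the highest levels in controls did not rise. Potri.T117300 fell from 8.07, 8.14, 8.11 and 6.15 TPM in CK to 3.20, 3.65, 4.67 and 4.11 TPM for line 2 and 3.80, 5.25, 4.83 and 6.24 TPM for line 7. The groups overlapped in 1 library, replicate 4 of line 7. The log2 fold change of -0.67 had an SE of 0.13 (adjusted p = 0.00154 in limma). Potri.001G290600 fell from 4.86 ± 0.726 TPM in CK to 2.50 ± 0.454 TPM for line 2 and 3.31 ± 0.801 TPM for line 7 (SD, n = 4 each), with a log2 fold change of -0.60 (SE 0.13, limma adjusted p = 0.00327). This call was lost without control replicates 1 and 2 (-0.46, adjusted p = 0.0601). For line 7 alone the change was -0.45 (adjusted p = 0.0337), and it missed the threshold under median ratio scaling (-0.37, adjusted p = 0.053), under quantile normalization (-0.33, adjusted p = 0.109), with only the groups compared (-0.45, adjusted p = 0.0514), and when control replicate 1 or 2 or replicate 1, 2 or 4 of line 7 was left out (-0.48 to -0.35, adjusted p = 0.0578 to 0.0944).

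The remaining 2 SAG101 copies did not pass in both lines together. Potri.T116800 was at 6.16 ± 1.09 TPM in controls and 4.65 ± 1.14 TPM in OE libraries, and Potri.001G291000 at 1.48 ± 0.351 and 1.03 ± 0.25 TPM (SD, n = 4 and 8). Their log2 fold changes were -0.36 and -0.29, with limma adjusted p = 0.107 and 0.0574. The smaller of these p-values, that of Potri.001G291000, was 0.045 without control replicate 3 and 0.0416 without control replicate 4. It was 0.0461 without the expression filter and 0.0496 without the eBayes trend. With library weights Potri.T116800 passed in both lines (-0.4, limma adjusted p = 0.035) and in line 2 (-0.51, limma adjusted p = 0.0257). Summed over all 7 copies, SAG101 was at 22.5 ± 2.41 TPM in CK, 23.4 ± 3.97 TPM for line 2 and 27.9 ± 3.59 TPM for line 7 (SD, n = 4 each). The 3 copies that rose held 10.3 ± 3.76% of that sum in controls, 50.5 ± 2.52% in line 2 and 47.2 ± 12.4% in line 7. These copies were grouped after their values were seen, and the shares are given without a test. Salmon divides reads between similar transcripts, so the split between copies with neighbouring identifiers, such as Potri.T004600 and Potri.T004800, is uncertain.

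**Figure D2:**
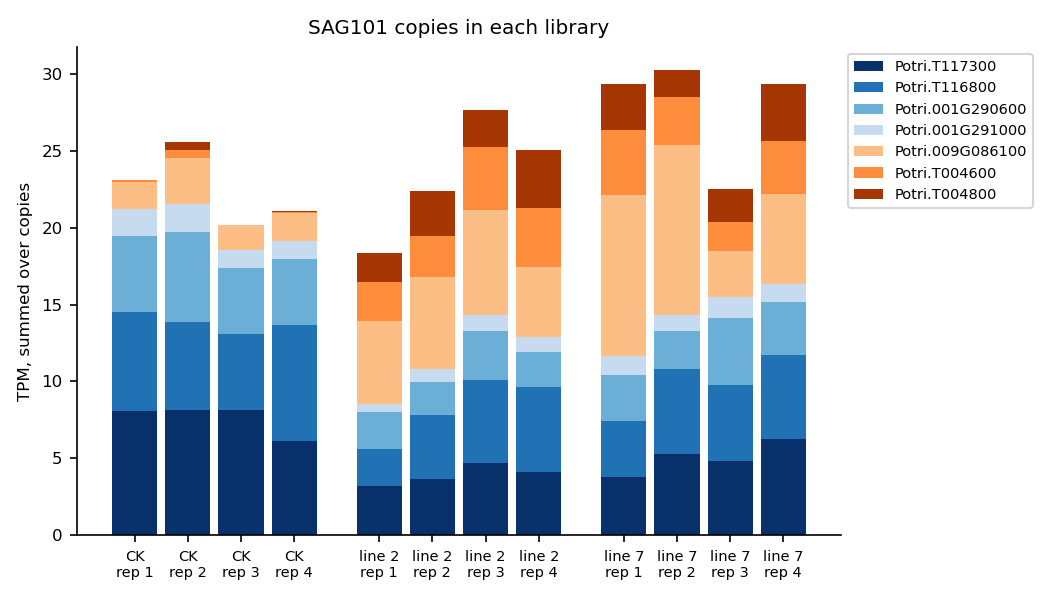
TPM of the 7 SAG101 copies, stacked to their sum, in each of 12 libraries (horizontal axis, by group and replicate). Blue shades are copies that fell or did not pass and orange shades are the 3 copies that rose, which held 8.03% to 15.9% of the sum in control libraries and 31.4% to 60.3% in OE libraries.

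The 2 copies of SARD1, a transcription factor that activates ICS1 and other defence genes in Arabidopsis, showed the largest rises of the 22 tested copies. The table pairs them with this locus but gives it no name. Potri.012G054900 was at 0.267, 1.03, 0.086 and 0.156 TPM in CK replicates 1 to 4, at 18.1, 18.2, 15.9 and 27.3 TPM in those of line 2 and at 22.6, 13.7, 13.9 and 17.7 TPM in those of line 7. Potri.015G045300 was at 0.226, 0.708, 0.090 and 0.098 TPM in CK replicates 1 to 4, at 16.3, 15.6, 14.8 and 18.4 TPM in those of line 2 and at 18.7, 13.3, 11.2 and 16.8 TPM in those of line 7. Every OE library was above 11 TPM and no control was above 1.03 TPM for either copy. The group means were in ratios of 47.9 and 55.7, and the log2 fold changes were 3.82 (SE 0.20, limma adjusted p = 4.71e-07) and 3.71 (SE 0.16, adjusted p = 1.5e-07). They ranked 89th and 106th from the highest of 24926 tested genes. Both copies were highest in control replicate 2 among controls. The ratio between the copies differed by 0.12 on the log2 scale between OE and control libraries (exact permutation p = 0.202, 8 against 4 libraries). At a pseudocount of 5 it differed by 0.14 (exact permutation p = 0.0202). With both copies at or under 1.03 TPM in every control, the control ratio depends on the pseudocount. The test therefore cannot tell whether the copies responded alike.

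ICS1, which makes isochorismate in the chloroplast, was lower in OE leaves, unlike its Arabidopsis activator SARD1. The ICS1 copy (Potri.012G070000) was at 17.1, 13.8, 7.66 and 9.64 TPM in CK replicates 1 to 4, at 6.51, 4.39, 7.72 and 4.11 TPM in those of line 2 and at 5.88, 6.13, 6.48 and 7.32 TPM in those of line 7. The highest OE library, replicate 3 of line 2, lay just above the lowest control, and control replicates 1 and 2 were the highest libraries. The log2 fold change of -0.85 had an SE of 0.20 (adjusted p = 0.00485 in limma), with values of -0.94 for line 2 alone (adjusted p = 0.00695) and -0.75 for line 7 alone (adjusted p = 0.024). Without control replicates 1 and 2 it was -0.46 (adjusted p = 0.107). In that fit, calls over all tested genes also fell, from 13980 to 7430. The part of these libraries and that of fewer controls cannot be told apart. For line 7 alone, ICS1 missed the threshold when control replicate 1 (-0.58, adjusted p = 0.0685), control replicate 2 (-0.67, adjusted p = 0.0669) or line 7 replicate 1 (-0.72, adjusted p = 0.0539) was left out.

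NPR1, a salicylate receptor that acts as a coactivator of defence genes, was higher in every OE library. Its copy (Potri.006G148100) was at 2.22, 3.12, 3.97 and 4.67 TPM in CK replicates 1 to 4, at 8.44, 9.69, 7.28 and 15 TPM in those of line 2 and at 7.55, 6.85, 14.5 and 10.8 TPM in those of line 7. The groups did not overlap. The log2 fold change of 1.27 had an SE of 0.23 (adjusted p = 0.001 in limma), with values of 1.29 for line 2 alone (adjusted p = 0.00263) and 1.26 for line 7 alone (adjusted p = 0.00404). The value for line 7 was 0.98 without control replicates 1 and 2 (adjusted p = 0.0556).

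The 4 tested copies of NPR3, a paralog of NPR1 that restrains defence genes in Arabidopsis, were all higher, by less than NPR1 in fitted fold change. Potri.015G117200 was at 17.0, 23.7, 21.1 and 23.9 TPM in CK replicates 1 to 4, at 34.1, 46.8, 33.5 and 42.7 TPM in those of line 2 and at 37.9, 43.5, 32.9 and 28.0 TPM in those of line 7, with no overlap (log2 fold change 0.77, SE 0.15, limma adjusted p = 0.00132). Potri.012G118500 was at 21.1, 31.6, 31.4 and 31.0 TPM in CK replicates 1 to 4, at 51.1, 56.4, 31.5 and 42.1 TPM in those of line 2 and at 45.2, 50.8, 39.8 and 25.4 TPM in those of line 7. Replicate 3 of line 2 and replicate 4 of line 7 lay within the control range.

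The call of Potri.012G118500 was a weak one, with a log2 fold change of 0.53 (SE 0.21, limma adjusted p = 0.0439), and it was lost in 14 of 22 alternatives, among them the fit without control replicate 1 (0.40, adjusted p = 0.154). Over all alternatives its adjusted p ranged from 0.0128 to 0.267. The ratio between these 2 most abundant NPR3 copies differed by -0.24 on the log2 scale between OE and control libraries (exact permutation p = 0.0808, 8 against 4 libraries), and by -0.29 without replicate 1 of line 2 (exact permutation p = 0.00606).

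The other tested NPR3 copies had lower levels. Potri.002G056500 rose from 3.92 ± 0.816 TPM in CK to 6.20 ± 0.483 TPM for line 2 and 5.53 ± 0.657 TPM for line 7, and 7 of 8 OE libraries lay above the highest control (log2 fold change 0.49, SE 0.11, limma adjusted p = 0.00395). Potri.005G206100 rose from 2.40 ± 0.614 TPM to 6.21 ± 1.86 TPM for line 2 and 5.60 ± 2.95 TPM for line 7 (SD, n = 4 each; log2 fold change 0.96, SE 0.28, limma adjusted p = 0.0121). Without control replicates 1 and 2 the change of Potri.005G206100 was 0.75 (adjusted p = 0.152). Summed over its 6 copies, NPR3 was at 57.1 ± 9.35 TPM in CK, 97.8 ± 17.1 TPM for line 2 and 87.8 ± 16.3 TPM for line 7 (SD, n = 4 each). Potri.012G118500 and Potri.015G117200 held 50.3% and 37.6% of the sum in controls, 46.0% and 40.4% in line 2, and 45.3% and 40.6% in line 7.

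**Figure D3:**
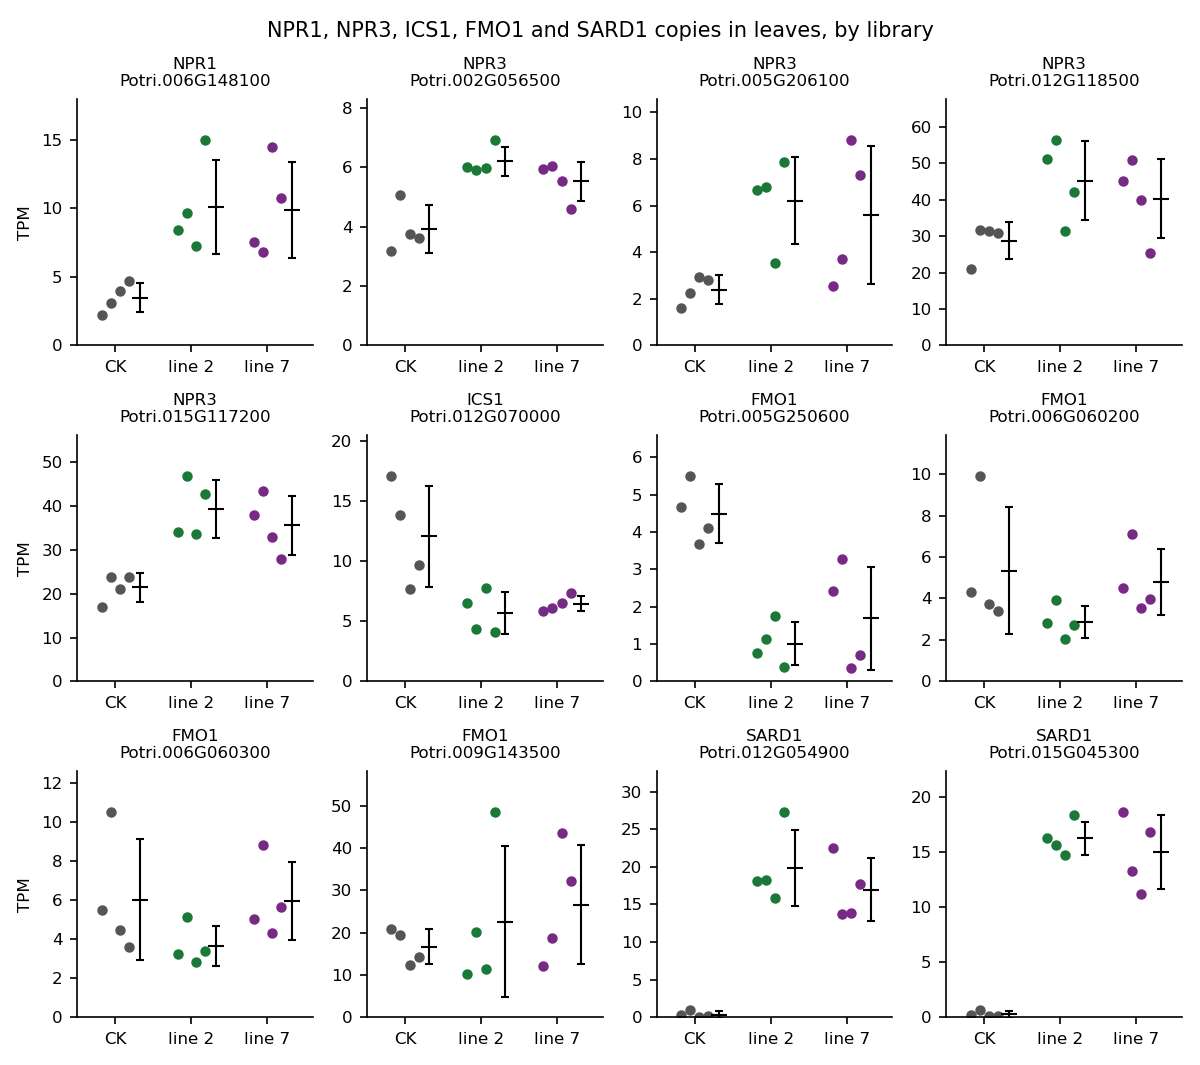
TPM of the tested NPR1, NPR3, ICS1, FMO1 and SARD1 copies (vertical axes, linear and starting at 0, 1 panel per copy) in the libraries of CK, OE line 2 and OE line 7. Points are libraries, ordered by replicate number, and bars are mean ± SD (n = 4). Both SARD1 copies are at or below 1.03 TPM in controls and at 11.2 to 27.3 TPM in OE libraries, and ICS1 is highest in control replicates 1 and 2.

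Of the 4 tested FMO1 copies, 1 was lower and 3 did not pass. Potri.005G250600 was at 4.66, 5.50, 3.68 and 4.11 TPM in CK replicates 1 to 4, at 0.770, 1.14, 1.75 and 0.393 TPM in those of line 2 and at 2.41, 3.28, 0.369 and 0.699 TPM in those of line 7. All OE libraries lay below all controls, the only tested copy of the 22 for which this held, against 19.1% of all tested genes. The log2 fold change of -1.33 had an SE of 0.29 (adjusted p = 0.00318 in limma), and it was -1.17 without control replicates 1 and 2 (adjusted p = 0.0588). By comparison, 8 tested copies had every OE library above every control, which held for 14.6% of all tested genes.

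The most abundant FMO1 copy, Potri.009G143500, spread widely in OE leaves. It was at 20.8, 19.5, 12.5 and 14.2 TPM in CK replicates 1 to 4, at 10.2, 20.2, 11.4 and 48.5 TPM in those of line 2 and at 12.1, 18.8, 43.6 and 32.1 TPM in those of line 7. Above the controls lay 3 OE libraries, 3 below and 2 among them (log2 fold change 0.34, SE 0.41, limma adjusted p = 0.494). Potri.006G060200 and Potri.006G060300 have consecutive identifiers, and the second was the higher in each library. The ratio of the first to the second was -0.42 to -0.06 on the log2 scale. They were at 5.34 ± 3.07 and 6.02 ± 3.09 TPM in controls and at 3.82 ± 1.55 and 4.80 ± 1.91 TPM in OE libraries (SD, n = 4 and 8), and neither passed (log2 fold changes -0.35 and -0.24, limma adjusted p = 0.244 and 0.406). Control replicate 2 was the highest library of both, at 9.91 and 10.5 TPM, and both changes were positive without control replicates 1 and 2 (0.02 and 0.15). The ratio of this pair differed by -0.10 on the log2 scale between OE and control libraries (exact permutation p = 0.117, 8 against 4 libraries) and by -0.15 without control replicate 1 (exact permutation p = 0.0485), and how their shared reads were split is uncertain.

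The other 4 copies lay below the expression filter. FMO1 copy Potri.001G335900 was at 0.065, 0, 0.074 and 0.081 TPM in controls and at 0.149 to 0.674 TPM in OE libraries, all above the controls (log2 difference 0.35, exact permutation p = 0.00404, 8 against 4 libraries). In a fit without the filter, limma gave it an adjusted p of 0.00571 over 34749 genes. FMO1 copy Potri.006G137600 stayed at or below 0.194 TPM and NPR3 copy Potri.015G115400 at or below 0.033 TPM in every library. For Potri.006G137600 the log2 difference was 0.07 (exact permutation p = 0.0404, 8 against 4 libraries), and limma gave an adjusted p of 0.206 without the filter. NPR3 copy Potri.012G118300 was at 0.615 ± 0.187 TPM in controls and 0.806 ± 0.138 TPM in OE libraries (SD, n = 4 and 8; exact permutation p = 0.0646), and its p was 0.0364 without control replicate 2, 0.0485 without control replicate 4 and 0.0485 without replicate 4 of line 7.

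The lines were then compared with the control one at a time. In line 2, 13 of 22 tested copies were higher and 5 lower, where 51.2% of all tested genes passed, 18.8% higher and 32.4% lower. In line 7, 11 were higher and 4 lower, where 43.8% of all tested genes passed, 18.9% higher and 24.8% lower. The 15 copies that passed in line 7 also passed in line 2 with the same sign, although both lines share the same controls. Without control replicates 1 and 2, 10 copies were higher and 2 lower in line 2, and 8 were higher and 0 lower in line 7. That fit called 3277 of all tested genes higher and 3608 lower in line 2, and 3058 and 1955 in line 7. The lower copies in line 7 numbered 2 when control replicate 1, control replicate 2, line 7 replicate 1 or line 7 replicate 4 was left out. In those fits 4030 to 4989 of all tested genes were lower in line 7, against 6194 with every library. The 3 copies that passed in line 2 alone were Potri.005G068700 (PAD4), Potri.012G118500 (NPR3) and Potri.001G291000 (SAG101). Their adjusted p-values in limma were 0.0402, 0.0458 and 0.0271 in line 2 and 0.0908, 0.143 and 0.339 in line 7. All 3 line 2 calls were lost without control replicate 1 (limma adjusted p = 0.119, 0.131 and 0.0702 in this order). They were also lost without control replicate 2 (limma adjusted p = 0.078, 0.0644 and 0.0794).

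The direct test of line 7 against line 2 gave no call among the 22 copies, where 0.0% of all 24926 tested genes passed. At an unadjusted p under 0.05 limma counted 418 genes and none of the copies, whose smallest unadjusted p was 0.0673. The fitted differences ran from -0.25 to 0.57 on the log2 scale. For EDS1 the difference was -0.03 (95% interval -0.45 to 0.39), for the SARD1 copies -0.22 (-0.73 to 0.30) and -0.13 (-0.52 to 0.27), and for NPR1 -0.03 (-0.61 to 0.55). The widest interval was that of PAD4 copy Potri.005G068700, at -0.25 (-1.36 to 0.85). These intervals leave room for differences between the lines of that size.

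**Figure D4:**
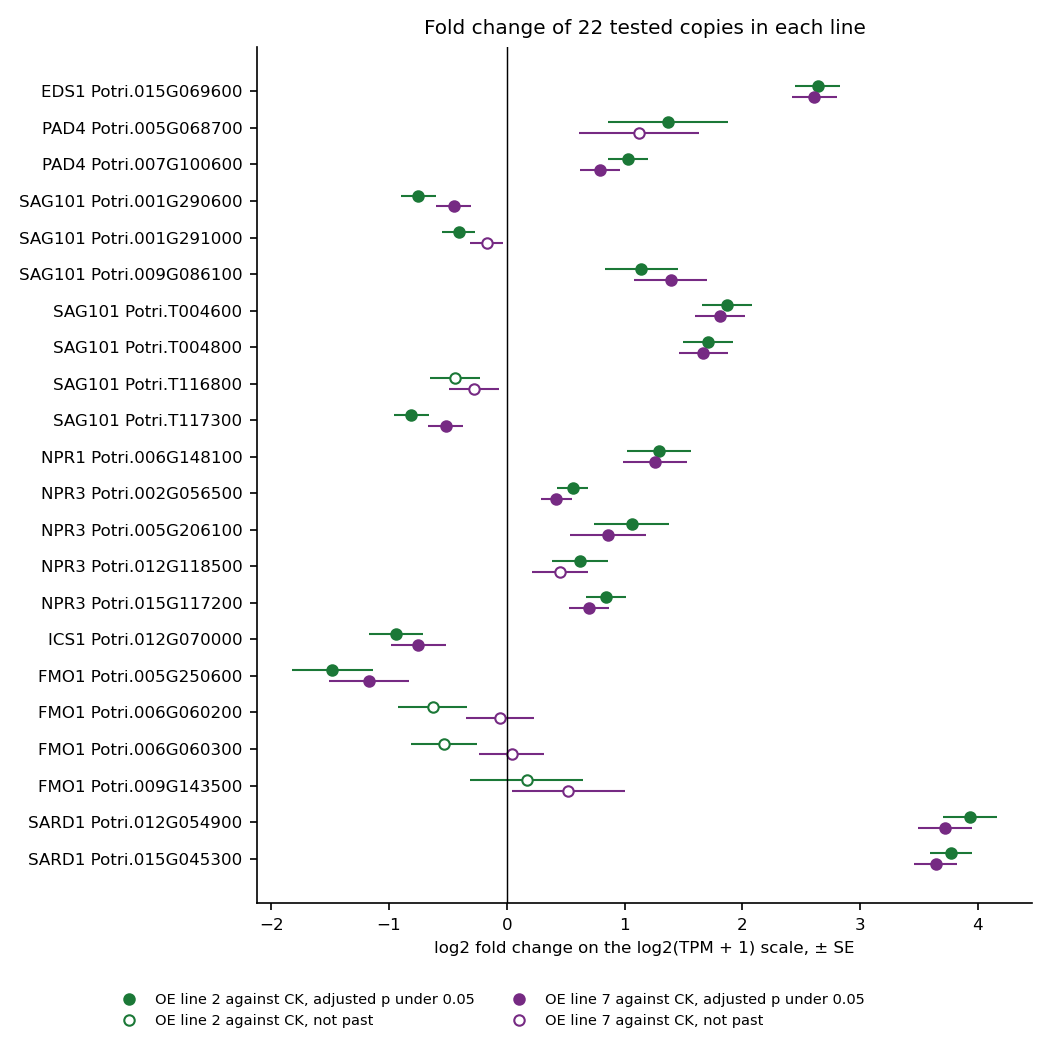
Log2 fold change on the log2(TPM + 1) scale (horizontal axis, ± SE) of the 22 tested copies in OE line 2 (green) and OE line 7 (purple) against CK, whose libraries both comparisons share. Filled points have an adjusted p under 0.05 in limma. The SARD1 copies lie at 3.64 to 3.93, EDS1 at 2.61 and 2.64, and the SAG101 copies on both sides of 0.

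The copies differed in how far they varied among the 8 OE libraries. EDS1, NPR3 copy Potri.002G056500 and SARD1 copy Potri.015G045300 had coefficients of variation of 11.1%, 10.9% and 16.1%. FMO1 copies Potri.005G250600 and Potri.009G143500 reached 77.5% and 61.1%, and PAD4 copy Potri.005G068700 reached 74.8%, against a median of 20.5% and an upper quartile of 37.3% over all tested genes. The same 3 OE libraries (line 2 replicate 4, line 7 replicates 3 and 4) held the 3 highest values of FMO1 copy Potri.009G143500 (48.5, 43.6 and 32.1 TPM) and of NPR1 (15, 14.5 and 10.8 TPM). They also held the 3 highest values of NPR3 copy Potri.005G206100 (7.85, 8.81 and 7.31 TPM). The 3 lowest values of FMO1 copy Potri.005G250600 (0.393, 0.369 and 0.699 TPM) lay there as well. EDS1, at 13.0, 10.2 and 9.88 TPM, and SARD1 copy Potri.012G054900, at 27.3, 13.9 and 17.7 TPM, did not set these libraries apart. They were singled out after the values were seen, and no test was made.

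Likeness of pattern was measured as the root mean square difference of log2(TPM + 1), centred on each gene's own mean, over the 12 libraries. For EDS1 the closest annotated genes were the peroxidase PRX34 (Potri.001G011300, 0.236), the F-box gene CPR30 (Potri.001G146000, 0.238) and the receptor kinase PR5K (Potri.004G096800, 0.242), where the median over annotated genes was 1.35. On average these were at 53.7, 5.72 and 0.259 TPM in controls and at 368, 46.1 and 6.65 TPM in OE leaves. For NPR1 the closest were a thioredoxin superfamily gene (Potri.015G078900, 0.116), PDIL5-2 (Potri.019G082400, 0.134) and CYP72A15 (Potri.011G098800, 0.147). For PAD4 copy Potri.005G068700 they were a glycosyltransferase (Potri.009G144000, 0.331), a UPF0114 family gene (Potri.014G039000, 0.342) and a gene without a description (Potri.T176700, 0.347). For SAG101 copy Potri.T117300 they were a methyltransferase (Potri.007G021400, 0.102), the kinase MAPKKK3 (Potri.005G062500, 0.102) and a gene without a description (Potri.017G060200, 0.113).

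Other genes of the pathway were taken from 6 lists of Arabidopsis loci. Of 60 loci, 35 were paired with at least 1 poplar gene, giving 108 genes of which 82 were tested. In both OE lines together 40 were higher, 8 lower and 34 did not pass, beside 22.1% higher and 34.0% lower among all tested genes. Their median log2 fold change was 0.69, and -0.133 over all tested genes. Without control replicates 1 and 2, 29 were higher and 4 lower, where 3887 and 3543 of all tested genes passed. The filter let in genes at 1 TPM in OE libraries alone, such as DLO1 copy Potri.001G451300, at no more than 0.19 TPM in controls. It left out UGT76B1 copy Potri.016G057300, at 2.58 ± 2.0 TPM in controls and 0.0222 ± 0.041 TPM in OE libraries (SD, n = 4 and 8). These counts therefore describe the genes that passed the filter and are not support for a shared direction.

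**Figure D5:**
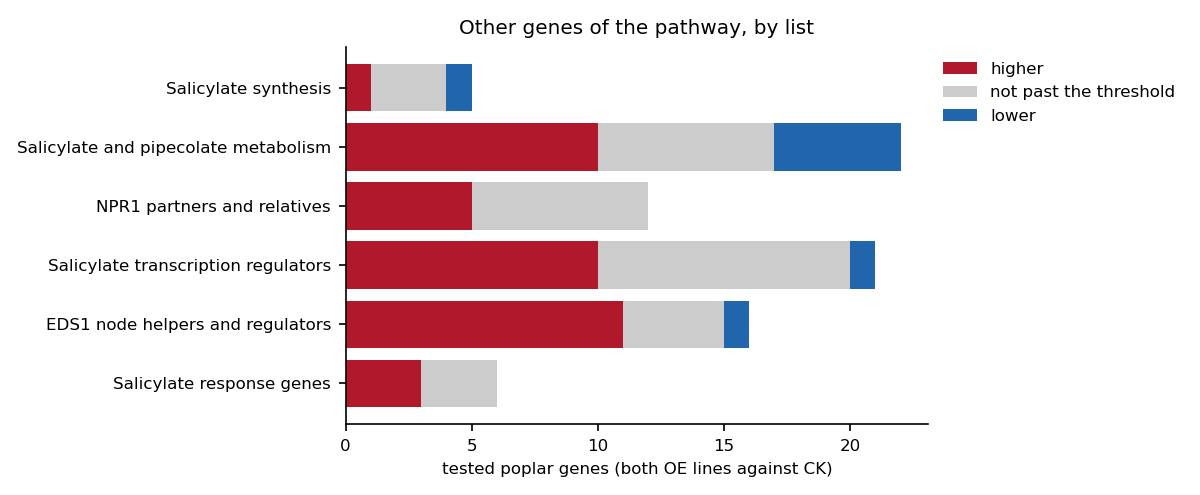
Number of tested poplar genes (horizontal axis) in 6 lists of salicylate and EDS1 pathway genes that were higher (red), not past the threshold (grey) or lower (blue) in both OE lines against CK, at an adjusted p under 0.05 in limma. The EDS1 helper list holds 11 higher and 1 lower of 16. Of all tested genes, 56.1% passed, 22.1% higher and 34.0% lower.

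Among helpers and regulators of EDS1 signalling, 11 of 16 tested genes were higher and 1 lower. Of all tested genes, 56.1% passed, 22.1% higher and 34.0% lower. NUDT7, a hydrolase that restrains EDS1 signalling in Arabidopsis (Potri.001G127700), was at 0.336, 1.14, 0.380 and 0.050 TPM in controls and between 17.5 and 33.4 TPM in OE libraries (log2 fold change 4.24, SE 0.20, limma adjusted p = 2.53e-07). NRG1.1, a helper receptor that works with EDS1 and SAG101 (Potri.007G039100), rose from 4.73 ± 1.02 to 17.9 ± 8.75 TPM, and NDR1, a membrane protein needed by other receptors (Potri.011G133900), from 14.1 ± 2.10 to 24.7 ± 3.25 TPM (SD, n = 4 and 8; limma adjusted p = 0.000798 and 0.000617). The NDR1 copies did not move together: Potri.001G418000 was higher, at 10.5 ± 0.893 TPM in controls and 14.7 ± 3.01 TPM in OE leaves, and Potri.004G023400 was the lower gene of the list, at 3.95 ± 1.06 and 2.12 ± 1.13 TPM (limma adjusted p = 0.0335 and 0.0416). Several neighbouring NRG1.1 genes share this description, and the split of reads among them is uncertain. The helper receptor ADR1-L1, which works with PAD4 in Arabidopsis, had 2 tested copies that did not pass, at 39.4 ± 6.36 and 56.2 ± 5.45 TPM in controls and 40.1 ± 13.1 and 50.7 ± 15.4 TPM in OE leaves (limma adjusted p = 0.951 and 0.449). ADR1-L1 was named after its values were seen, as the helper of the PAD4 branch.

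Among partners and relatives of NPR1, 5 of 12 tested genes were higher and none lower, where 56.1% of all tested genes passed, 22.1% higher. NIMIN1, which binds NPR1 and dampens its activity in Arabidopsis (Potri.002G190800), rose from 2.15 ± 1.41 to 27.2 ± 11.5 TPM (limma adjusted p = 7.53e-05). TGA1, a bZIP factor that works with NPR1 (Potri.007G085700), rose from 1.43 ± 0.402 to 4.86 ± 2.15 TPM and BOP2, an NPR1 relative known from leaf patterning (Potri.006G043400), from 0.869 ± 0.511 to 2.89 ± 1.15 TPM (SD, n = 4 and 8; limma adjusted p = 0.00324 and 0.00375). The other BOP2 copy, Potri.016G040500, was at 2.07 ± 0.893 TPM in controls and 1.13 ± 0.517 TPM in OE leaves and did not pass (log2 fold change -0.52, limma adjusted p = 0.0507).

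Among transcription regulators of the salicylate response, 10 of 21 tested genes were higher and 1 lower. Over all tested genes 56.1% passed, 22.1% higher and 34.0% lower. WRKY70, which is induced by salicylate in Arabidopsis (Potri.016G137900), rose from 17.2 ± 6.95 to 135 ± 52.8 TPM. WRKY40, a repressor of early defence genes, rose from 17.2 ± 9.53 to 163 ± 54.1 TPM (Potri.018G019800) and, in its neighbour Potri.018G019700, from 0.572 ± 0.420 to 11.1 ± 7.42 TPM (SD, n = 4 and 8; limma adjusted p = 7.99e-05, 0.000152 and 0.000478 in this order). The other 2 tested WRKY40 copies, Potri.001G044500 and Potri.003G182200, did not pass (limma adjusted p = 0.492 and 0.564). No row is paired with CBP60G, which acts alongside SARD1 in Arabidopsis.

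Salicylate synthesis outside ICS1 was represented by PAL1, of the phenylalanine route, since no row is paired with the other 6 loci of that list. Of 5 tested PAL1 copies, 1 was higher, 1 lower and 3 did not pass, where 56.1% of all tested genes passed. Potri.008G038200 rose from 53.2 ± 4.73 to 197 ± 96.2 TPM, and Potri.006G126800 fell from 2124 ± 1141 to 659 ± 469 TPM (SD, n = 4 and 8; limma adjusted p = 0.00105 and 0.00355). The fall was lost without control replicates 1 and 2 (log2 fold change -1.04, adjusted p = 0.0948). In OE leaves the highest values of Potri.008G038200 were 273, 370 and 275 TPM in line 2 replicate 4 and in line 7 replicates 3 and 4, the libraries in which NPR1 was also highest.

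Among enzymes that modify salicylate or make pipecolate signals, 10 of 22 tested genes were higher and 5 lower. Over all tested genes 56.1% passed, 22.1% higher and 34.0% lower. DMR6, which hydroxylates salicylate (Potri.012G006300), rose from 2.22 ± 0.830 to 36.2 ± 13.8 TPM (limma adjusted p = 1.14e-05). In OE libraries it was lowest in replicates 3 and 4 of line 7, at 14.1 and 16.4 TPM, and at 37.6 to 52.1 TPM in the others. BSMT1, which methylates salicylate (Potri.019G022100), fell from 3.98 ± 0.741 to 0.818 ± 0.525 TPM, and UGT74F1, which attaches glucose to it (Potri.007G117200), from 57.5 ± 4.58 to 33.3 ± 3.67 TPM (SD, n = 4 and 8; limma adjusted p = 4.58e-05 and 9.78e-05). The most abundant BSMT1 copy, Potri.007G021300, was at 311 ± 216 TPM in controls and 982 ± 650.1 TPM in OE leaves and did not pass (log2 fold change 1.75, SE 0.75, limma adjusted p = 0.0641). UGT74F1 copy Potri.007G140575 also fell, from 8.18 ± 0.698 to 5.69 ± 0.792 TPM (SD, n = 4 and 8, with limma adjusted p = 0.00235). UGT74F2 (Potri.007G140500), of the same list, rose from 29.9 ± 9.53 to 79.1 ± 29.7 TPM (SD, n = 4 and 8, with limma adjusted p = 0.00317). These enzymes belong to large families, and the pairing with a locus does not show the substrate of the poplar protein.

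Of 6 tested salicylate response genes, 3 were higher and none lower, where 56.1% of all tested genes passed, 22.1% higher. PR1, the usual marker of the salicylate response, had 2 copies that rose: Potri.001G288600 from 4.11 ± 3.08 to 115 ± 85.6 TPM and Potri.009G082900 from 1.16 ± 0.598 to 8.58 ± 3.89 TPM (SD, n = 4 and 8; limma adjusted p = 0.000126 and 6.72e-05). For both, every OE library lay above every control, while a further copy, Potri.009G082800, was at 5.37 ± 0.453 TPM in controls and 6.41 ± 3.29 TPM in OE leaves and did not pass (limma adjusted p = 0.806). Control replicate 1 was the lowest library of the 2 copies that rose, at 0.202 and 0.331 TPM. The glutaredoxin GRXC9 (Potri.017G017300) rose from 63.6 ± 32.3 to 142 ± 72.5 TPM (limma adjusted p = 0.0415), a call that was lost without control replicates 1 or 3, replicates 2 or 4 of line 2, or replicates 1 or 2 of line 7 (log2 fold changes 0.70 to 1.26, adjusted p = 0.0626 to 0.156), and its 2 other tested copies did not pass (adjusted p = 0.0875 and 0.219).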

How the data were processed

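RNA sequencing of leaves gave 12 libraries in 3 groups of 4. The authors deposited 1 table of TPM per gene and library, per the file headers and values. The submitters' processing notes list Cutadapt, FastQC and Salmon without version numbers. How these tools were set, and against which build and annotation, is not given in the sources used here. TPM are shares of a fixed total and keep no record of depth, so no counting interval is given.

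TPM were transformed to log2(TPM + 1), keeping genes at 1 TPM or more in at least 4 libraries (24926 of 34749). Group means were fitted by limma 3.58.1 in R 4.3.3, using all 12 libraries and a trend in eBayes. Two-sided p-values were Benjamini-Hochberg adjusted across the tested genes (threshold 0.05). The procedure was tested on simulated data. Copies below the filter and ratios of 4 pairs of copies were compared by exact two-sided permutation tests (scipy 1.17.1), whose smallest p is 0.00404 for 8 against 4 libraries. The tests of pairs were added after the values were seen.

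Members, pathway lists and alternatives were chosen with earlier results of these data known. From each pathway list, up to 3 genes of smallest adjusted p past the threshold are named, with exceptions stated, and for the most abundant tested copy of EDS1, PAD4, SAG101 and NPR1 the 3 annotated genes closest in pattern. Further copies of named pathway genes, and further genes of the pathway lists, were added after their values were seen. The alternatives changed the pseudocount (0.1 or 5), the filter (none, or mean TPM 5 and above), the scaling (median ratio, quantile), the model (replicate block, compared groups only, no eBayes trend, library weights) or the libraries, by leaving out each library or control replicates 1 and 2 together.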

Additional observations from a re-analysis of the deposited data

Results flagged for a closer look

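In 7 of 76 groups of 4 libraries with any spread, 1 library lay far from the other 3 (gap to the nearest library over the group's range above 0.829). Chance gives about 1 in 20 such groups. Control replicate 2 was the high library in 4 of them. It was at 6.37 TPM for PAD4 copy Potri.007G100600 (other controls 3.50 to 3.96), at 3.01 TPM for SAG101 copy Potri.009G086100 (1.62 to 1.78), at 0.518 TPM for SAG101 copy Potri.T004800 (0 to 0.046) and at 9.91 TPM for FMO1 copy Potri.006G060200 (3.40 to 4.31). Control replicate 4 was low for SAG101 copy Potri.T117300, at 6.15 TPM against 8.07 to 8.14 in the others. Control replicate 1 was low for NPR3 copy Potri.012G118500, at 21.1 TPM against 31.0 to 31.6. Replicate 4 of line 2 was high for NPR3 copy Potri.002G056500, at 6.92 TPM against 5.91 to 6.01.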

How the results depend on the processing

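Over 22 alternatives, 11 of the 17 called copies stayed past the threshold with the same sign in both lines together wherever they were tested: EDS1, PAD4 copy Potri.007G100600, SAG101 copies Potri.009G086100, Potri.T004600, Potri.T004800 and Potri.T117300, NPR1, NPR3 copies Potri.002G056500 and Potri.015G117200, and both SARD1 copies. Without control replicates 1 and 2, the calls among copies numbered 11 in both lines and 8 in line 7, and the cause was not tested. Calls over all 24926 tested genes numbered 7430 and 5013 in that fit. Leaving out 1 library at a time gave 15 to 17 calls in both lines, 14 to 18 in line 2, 11 to 16 in line 7, 0 for line 7 against line 2, and 39 to 46 among pathway genes. Over all tested genes, leaving out 1 library gave 11206 to 14000 calls in both lines, 10234 to 12689 in line 2 and 7929 to 11316 in line 7. The remaining alternatives kept the counts among copies and pathway genes within 1.5 times of the reported ones. Of 1475 recomputed fold changes of copies, 1357 kept their direction and side of the threshold, 92 lost the call, 11 gained it and 15 changed sign. None of those that changed sign had passed. For Potri.006G060200 in line 7 the change was 0.02 under median ratio scaling, 0.06 under quantile normalization, 0.09 with library weights and 0.30 without control replicates 1 and 2, and -0.24 to 0.23 with 1 library left out. In both lines it was 0.02 without control replicates 1 and 2. For Potri.006G060300 it was 0.13 with library weights and 0.15 without control replicates 1 and 2 in both lines, -0.42 to 0.02 with 1 library left out, and -0.14 to 0.31 in line 7. For Potri.009G143500 in line 2 it was -0.28 to 0.44 with 1 library left out, and for Potri.001G291000 in line 7 it was 0.01 without control replicates 1 and 2. The difference between the PAD4 copies was -0.36 without control replicates 1 and 2 and that between the SARD1 copies -0.031 at a pseudocount of 0.1. Same-numbered libraries deviated together (correlation over 0.1) in 9 of 12 pairs, while the lowest correlation was -0.472. In 13 of 24 comparisons with another group, a library was closest to that of its own number. The labels do not say whether the numbers pair the samples, and the main fit has no block. With the replicate number as a block, calls among copies were 18 in both lines, 19 in line 2, 14 in line 7 and 0 between the lines, and 50 among pathway genes. Over all tested genes the block gave 13745 calls in both lines, 12527 in line 2, 10763 in line 7 and 0 between the lines. Under the block Potri.006G060200 passed in both lines (-0.35, adjusted p = 0.0473 in limma) and in line 2 (-0.63, adjusted p = 0.00866), Potri.006G060300 passed in line 2 (-0.53, adjusted p = 0.0194), and Potri.001G290600 did not pass in line 7 (-0.45, adjusted p = 0.0509). Restricting the fit to the groups compared does not apply to both lines together, which use every library. Unknown depth limits the copies near 0 TPM.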
